A study of Mus musculus with 9 samples.

Results

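The *Slc25* genes encode the mitochondrial carriers, and 46 of them were followed in hearts of mice lacking copies of *miR-1*, a microRNA of cardiac and skeletal muscle. Every gene with a symbol of the form *Slc25a* and a number was taken, provided that a probe set was listed for it alone, which gave 46 genes of 22180 in all. Each had exactly 1 such probe set.

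Hearts were taken on postnatal day 2 from 3 genotypes, with 3 arrays each. The double-heterozygous hearts (*miR-1-2* +/-: *miR-1-1* +/-) lacked 1 copy of each of the 2 *miR-1* genes. The *miR-1-1* null hearts lacked both copies of *miR-1-1* and kept *miR-1-2*. The wild-type hearts had all copies, and all 3 genotypes were on a mixed 129 x C57BL/6 background. The *miR-1-1* allele was made in embryonic stem cells, where a neomycin resistance gene took the place of the precursor, so the deletion was present in every cell of the animal. Both *miR-1* genes lie beside a *miR-133a* gene. The labels name no litter or sex and do not say whether each array was 1 heart, so p-values here reflect how far these 9 arrays differ, part of which may be technical.

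Mitochondrial carriers sit in the inner membrane of the mitochondrion and exchange metabolites between its matrix and the cytosol. In the heart they bring in ADP, phosphate, acylcarnitines and reducing equivalents, and let out the ATP that feeds contraction. Most are made in the cytosol without a cleaved leader and reach the membrane through a dedicated import route. The weeks around birth are when the mouse heart turns toward fatty acid oxidation. Of the family, *Slc25a22* and *Slc25a25* are among the consensus predicted *miR-1* targets listed by the study. That list took only genes whose level in late embryonic hearts without any *miR-1* equalled or exceeded the wild-type level. Predicted targets that were lower there are therefore absent from it.

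The deposited values are log2 expression levels, and any pair of arrays correlated over all genes at 0.982 to 0.988. *Mir1a-1*, the deleted precursor in null hearts, was dim, at log2 levels of 1.52, 1.46 and 0.92 in double-heterozygous, 1.06, 0.95 and 1.29 in *miR-1-1* null and 1.29, 1.85 and 2.21 in wild-type hearts. The groups overlap, so this probe set is a weak check of the labels. Its neighbour *Mir133a-2* was at 6.32, 5.33 and 5.87 in double-heterozygous, 4.51, 3.79 and 3.07 in *miR-1-1* null and 5.63, 6.38 and 5.45 in wild-type hearts, lowest in every null array. *Mir133a-1*, which lies beside *miR-1-2*, was at 4.43, 4.00 and 4.22, at 6.16, 5.54 and 5.66, and at 6.37, 6.09 and 5.42 in the same order, and was lower in every double-heterozygous array than in any other. The log2 fold changes were -2.03 for *Mir133a-2* in null and -1.74 for *Mir133a-1* in double-heterozygous hearts against wild-type (adjusted p = 0.533 and 0.0929 by limma). The mutant genotypes thus also differed in the probe set signal of these neighbours. *Mir133a-2* differed by 0.02 in double-heterozygous hearts (interval -0.85 to 0.90), so its signal does not show their loss of 1 *miR-1-1* copy. *Xist* was carried by 2 arrays, double-heterozygous replicate 7 and wild-type replicate 1, and by no null array. The summed level of 6 cardiomyocyte markers, on the log2 scale, lay between 12.94 and 13.01 in all 9 arrays. That of 6 macrophage and leukocyte markers was 6.08 to 6.14 in double-heterozygous, 6.20 to 6.38 in *miR-1-1* null and 6.38 to 6.82 in wild-type hearts. That of 4 smooth muscle markers was 9.80 to 10.24, 9.85 to 10.21 and 8.68 to 9.57 in the same order. These 4 did not move together. *Cnn1* differed from wild-type by 1.52 in double-heterozygous and 1.41 in null hearts, and *Acta2* by 0.73 and 0.78. *Tagln* differed by 0.21 and 0.31 with overlapping arrays, and *Myh11* by -0.08 in each. None of the 4 had an adjusted p under 0.05 by limma. The sum over 4 endothelial markers was 9.44 to 9.61, 9.36 to 9.63 and 9.66 to 9.74, and that over 5 skeletal muscle markers 10.32 to 10.53, 10.51 to 10.57 and 10.56 to 10.73. Over 6 fibroblast markers the sum was 11.10 to 11.33, 11.24 to 11.30 and 11.22 to 11.33. However, 3 of the 6, *Dcn*, *Pdgfra* and *Tcf21*, were lower in double-heterozygous than in wild-type hearts at an unadjusted p under 0.05. Their differences were -0.31, -0.40 and -0.55 on the log2 scale (adjusted p = 0.376, 0.351 and 0.224 by limma). The part of these cell types in the carrier values was not tested. In whole hearts a change in the number of cells of a type and one in RNA per cell cannot be told apart.

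The probe sets of the family had signals over much of the range of the array, which does not rank the genes, since probes differ in how strongly they respond. Of the 46 probe sets, 16 (34.8%) lay above the upper quartile of all genes in wild-type hearts, a log2 level of 4.75, and 11 lay below the median of 2.88. Those above the quartile include the probe sets of the ADP/ATP translocases *Slc25a4* and *Slc25a5*, the phosphate carrier *Slc25a3*, the malate and oxoglutarate carrier *Slc25a11*, the aspartate and glutamate carriers *Slc25a12* and *Slc25a13*, the acylcarnitine carrier *Slc25a20*, the coenzyme A carrier *Slc25a42* and both mitoferrins, *Slc25a28* and *Slc25a37*. As a gauge of background, the upper quartile of 1394 olfactory and vomeronasal receptor genes was 1.74. *Slc25a2*, *Slc25a21*, *Slc25a41*, *Slc25a48* and *Slc25a54* did not exceed it, and the other 41 did. The standard deviation between arrays of a genotype had a median of 0.154 over the 46 genes and 0.173 over all genes, and *Slc25a37*, at 0.68, was the only carrier gene above 0.5.

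**Figure D1:**
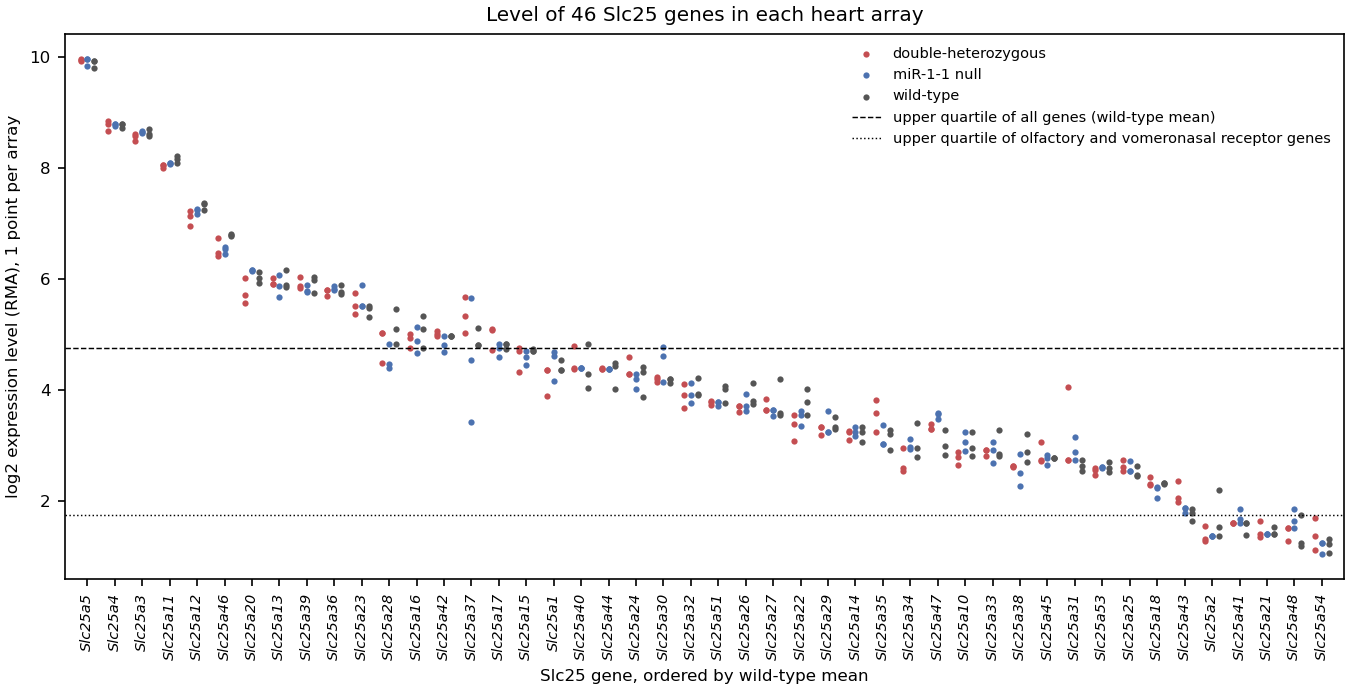
Log2 expression level (vertical axis) of each of 46 *Slc25* genes (horizontal axis, in order of the wild-type mean), with 1 point per array, double-heterozygous in red, *miR-1-1* null in blue and wild-type in grey; the dashed line is the upper quartile of all genes and the dotted line that of the receptor genes. The 9 points of a gene lie furthest apart in *Slc25a37*, which is spread in null hearts, and *Slc25a31*, which is high in 1 double-heterozygous array. Other genes, such as *Slc25a28*, at 4.40 to 5.46, also spread. Heights of different genes are not compared because they come from different probes.

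Promoter windows of 300 bases, from 250 before to 50 after the annotated start, were found for 36 of the 46 genes in RefSeq (GRCm38.p6). Motifs were searched by their letters on both strands, and they were chosen after the expression values were known. A gene counted if any of its windows held the letters, and the 36 genes had 46 windows. They were set beside all 27025 RefSeq genes with a window (32851 windows), which were not matched for array signal or number of windows. The GC box GGGCGG, the letters bound by Sp1-type factors, was present in 30 of the 36 genes (83.3%), against 38.2% of the 27025 genes. CCAAT, the letters of the CCAAT box, was in 19 (52.8%, against 41.1%), and TATAAA, those of a TATA box, in 2, *Slc25a18* and *Slc25a21* (5.56%, against 15.7%). CCGGAAG, read by ETS factors, was in 7 (19.4%, against 9.93%), and AAGGTCA, the half-site of estrogen-related receptors, in *Slc25a34* alone (2.78%, against 5.38%). The GC box was in 12 of 14 genes with a signal above the upper quartile and in 18 of the other 22. The 4 windows below are shown because they set both translocase genes beside the carrier genes with the smallest p in the comparison of null with wild-type hearts (*Slc25a47*) and in that of the mutant genotypes (*Slc25a20*); capitals mark GC boxes and CCAAT boxes on either strand, no 2 of which overlap.
*Slc25a4* (chr8:46211013-46211312, minus strand): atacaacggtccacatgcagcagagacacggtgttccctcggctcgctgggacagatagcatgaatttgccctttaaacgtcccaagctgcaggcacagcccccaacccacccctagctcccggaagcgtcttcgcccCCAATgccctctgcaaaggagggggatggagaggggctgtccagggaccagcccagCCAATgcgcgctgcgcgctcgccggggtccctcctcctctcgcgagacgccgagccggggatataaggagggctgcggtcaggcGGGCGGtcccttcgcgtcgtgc
*Slc25a5* (chrX:36795347-36795646, plus strand): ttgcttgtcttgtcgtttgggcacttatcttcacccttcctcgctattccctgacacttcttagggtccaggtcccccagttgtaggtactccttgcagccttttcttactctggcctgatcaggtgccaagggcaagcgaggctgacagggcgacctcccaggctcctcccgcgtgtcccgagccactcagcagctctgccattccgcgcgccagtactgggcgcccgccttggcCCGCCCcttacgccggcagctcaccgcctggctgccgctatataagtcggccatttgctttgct
*Slc25a20* (chr9:108661886-108662185, plus strand): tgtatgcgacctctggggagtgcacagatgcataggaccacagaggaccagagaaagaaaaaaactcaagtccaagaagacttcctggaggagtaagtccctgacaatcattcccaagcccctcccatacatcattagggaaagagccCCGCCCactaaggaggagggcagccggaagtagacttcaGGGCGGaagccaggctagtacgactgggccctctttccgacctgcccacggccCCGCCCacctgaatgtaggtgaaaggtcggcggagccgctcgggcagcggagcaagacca
*Slc25a47* (chr12:108850879-108851178, plus strand): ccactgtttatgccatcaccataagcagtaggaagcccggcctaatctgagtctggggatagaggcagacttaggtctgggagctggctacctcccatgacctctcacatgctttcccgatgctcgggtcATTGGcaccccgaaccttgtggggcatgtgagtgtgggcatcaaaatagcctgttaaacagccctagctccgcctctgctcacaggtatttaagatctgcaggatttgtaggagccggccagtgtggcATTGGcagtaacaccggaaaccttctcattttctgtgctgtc
The *Slc25a20* window holds 3 GC boxes and no CCAAT box, that of *Slc25a4* holds 1 GC box and 2 CCAAT boxes, and that of *Slc25a5* holds 1 GC box. The *Slc25a47* window has no GC box and 2 CCAAT boxes, and is poorer in G and C, at 53.3%, than the other 3, at 58 to 65.7%.

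Across the genotypes, no carrier gene passed the study's rule or an adjusted p of 0.05. The study's rule asks for a fold change over 1.5 or under 0.5 and an unadjusted p of less than 0.0025, from limma, a linear model that borrows the spread from all genes. None of the 46 genes met this in double-heterozygous against wild-type hearts, where 0.541% of all genes did, in *miR-1-1* null against wild-type hearts (0.126%), or in double-heterozygous against *miR-1-1* null hearts (0.302%). After Benjamini-Hochberg adjustment for all genes tested, none had a p under 0.05 either (0.018%, 0% and 0% of all genes in the same order). At an unadjusted p under 0.05 there were 6 carrier genes (13%) in double-heterozygous against wild-type hearts, near the 10.6% of all genes, with 3 higher (4.45% of all genes) and 3 lower (6.15%). In *miR-1-1* null against wild-type hearts there were 5 (10.9%, against 5.72%), with 2 higher (2.57%) and 3 lower (3.15%). In double-heterozygous against *miR-1-1* null hearts there were 3 (6.52%, against 7.39%), with 2 higher (3.59%) and 1 lower (3.79%). These small counts turned on single arrays. For double-heterozygous against wild-type hearts the 6 became 2 without double-heterozygous replicate 7 and 3 without wild-type replicate 3. For null against wild-type hearts the 5 became 2 without null replicate 4 and 3 without wild-type replicate 2 or double-heterozygous replicate 7 or 8. The 3 of the direct comparison became 1 without null replicate 4, 5 without null replicate 5 and 6 without wild-type replicate 1. The comparisons with wild-type share the wild-type arrays, and are therefore not independent of each other.

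The intervals of most carriers lay within 1.5-fold either way, at shares near those of all genes. Between double-heterozygous and wild-type hearts the 95% interval of the fold change did so in 36 of the 46 genes (78.3%, against 72.3%). The same held for 37 genes between null and wild-type hearts (80.4%, against 77.1%). Between double-heterozygous and null hearts it held for 36 (78.3%, against 75.5%). The median log2 fold change of the family was -0.018 in double-heterozygous against wild-type hearts, with 25 of 46 below 0, beside -0.024 over all genes, of which 55.3% were below 0. It was -0.03 in null against wild-type hearts, with 27 below 0, beside -0.007 and 51.9% over all genes. Between double-heterozygous and null hearts it was 0.008, with 21 below 0, beside -0.018 and 54.5%. Among genes above the upper quartile the carriers had medians of -0.032, -0.084 and 0.008 in the 3 comparisons, and all such genes -0.095, -0.022 and -0.073.

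**Figure D2:**
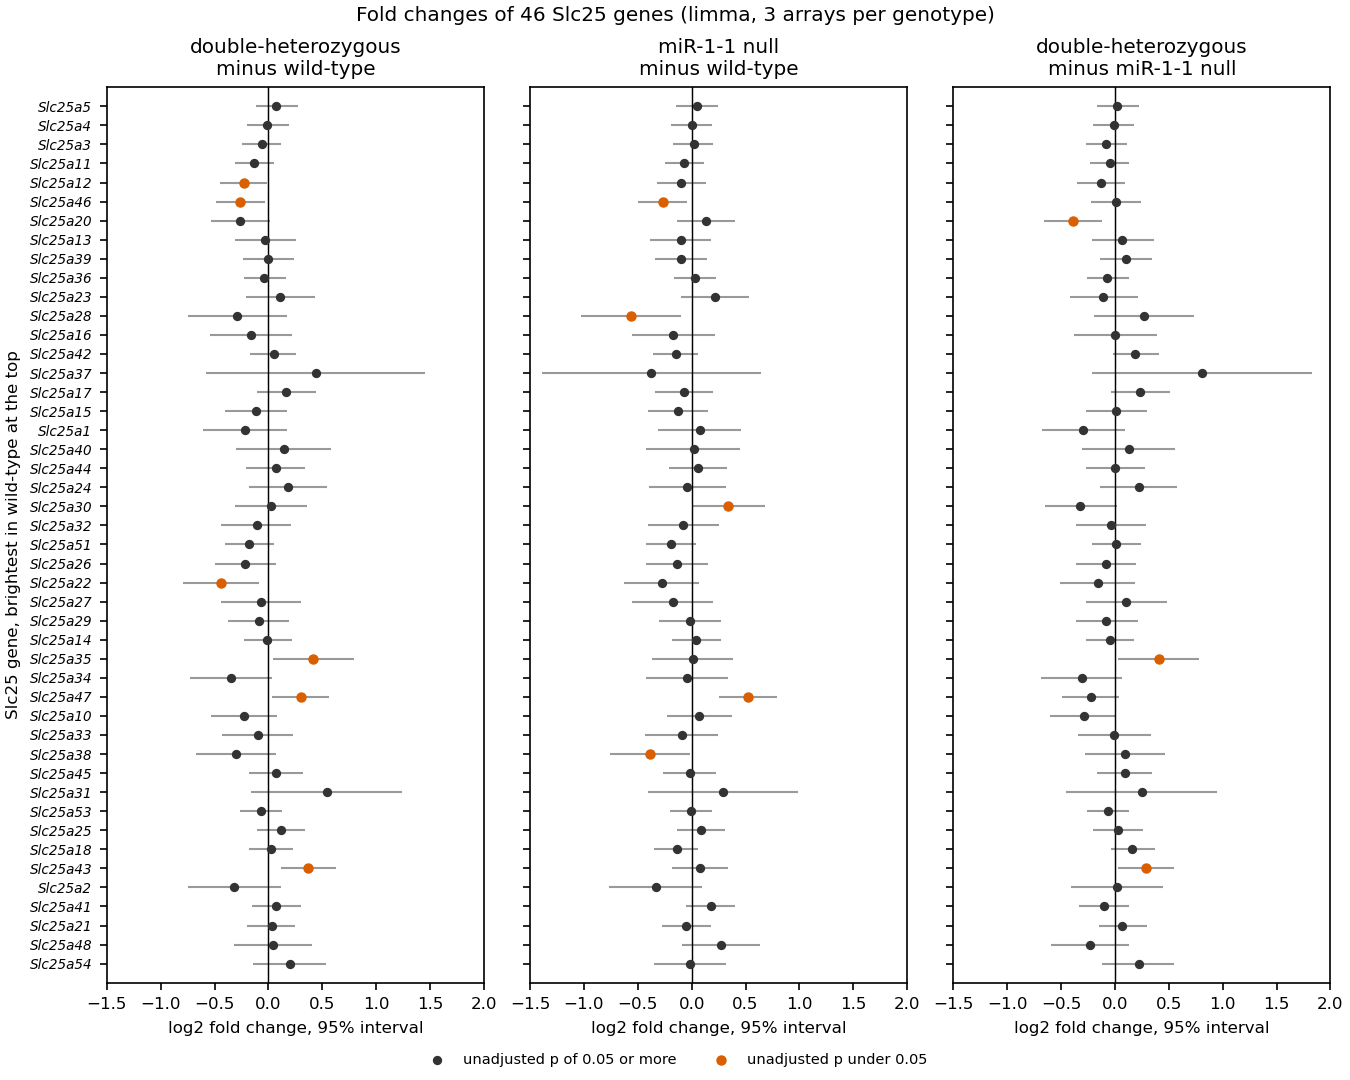
Log2 fold change (horizontal axes) of 46 *Slc25* genes (vertical axis, brightest in wild-type at the top) in the 3 comparisons, with points for the limma estimate and bars for its 95% interval; orange points have an unadjusted p under 0.05. Most points lie near 0, with 6, 5 and 3 orange points from left to right, and *Slc25a37* has the widest bars.

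The carriers of the ATP cycle differed little between the 3 genotypes, with narrow intervals. *Slc25a4*, which encodes the ADP/ATP translocase of heart and muscle, was at 8.79, 8.67 and 8.85 in double-heterozygous, 8.76, 8.79 and 8.79 in *miR-1-1* null and 8.80, 8.73 and 8.80 in wild-type hearts. The translocase of most tissues, *Slc25a5*, was at 9.98, 9.96 and 9.93 in double-heterozygous, 9.84, 9.97 and 9.98 in null and 9.93, 9.80 and 9.93 in wild-type hearts. All groups overlap. Against wild-type the log2 fold change of *Slc25a4* was -0.01 in double-heterozygous (95% interval -0.20 to 0.19) and 0.00 in null hearts (-0.19 to 0.19). For *Slc25a5* it was 0.07 (-0.12 to 0.27) and 0.05 (-0.15 to 0.24). *Slc25a3*, which imports the phosphate that ATP synthase uses, was at 8.62, 8.59 and 8.50 in double-heterozygous, 8.63, 8.67 and 8.65 in null and 8.70, 8.61 and 8.59 in wild-type hearts. Its fold changes were -0.06 (-0.25 to 0.12) and 0.02 (-0.17 to 0.20). The double-heterozygous arrays lay just below all null arrays, with a mean difference of -0.08 on the log2 scale (interval -0.27 to 0.11), which was -0.02 after quantile or cyclic loess normalization. Over the 10 nucleotide and phosphate carriers the median fold change was 0.072 in double-heterozygous and 0.04 in null hearts. Of the 10, 0 had an unadjusted p under 0.05 in either comparison, beside 10.6% and 5.72% of all genes. At such shares a list of this size would hold few or none. *Slc25a31*, the translocase of the male germ line, stood at 4.05 in double-heterozygous replicate 9 and at 2.54 to 3.15 in the other 8 arrays.

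The malate-aspartate shuttle carries the reducing equivalents of cytosolic NADH into mitochondria, and 2 of its carriers had slightly lower means in double-heterozygous hearts. *Slc25a12*, the calcium-regulated aspartate and glutamate exchanger of heart, muscle and brain, was at 7.13, 6.95 and 7.23 in double-heterozygous, 7.25, 7.18 and 7.27 in *miR-1-1* null and 7.37, 7.25 and 7.36 in wild-type hearts. Double-heterozygous arrays lay below all wild-type arrays, with a log2 fold change of -0.23 (standard error 0.10, adjusted p = 0.457 by limma), which was -0.15 without double-heterozygous replicate 8, -0.14 after quantile and -0.15 after cyclic loess normalization. Null arrays overlapped with wild-type ones (-0.10, interval -0.32 to 0.13). *Slc25a11*, its partner in the shuttle, was at 8.05, 8.00 and 8.06 in double-heterozygous, 8.07, 8.10 and 8.10 in null and 8.22, 8.17 and 8.10 in wild-type hearts. The double-heterozygous arrays did not overlap with wild-type here either, at -0.13 (interval -0.31 to 0.05), but the value was -0.05 after quantile and -0.06 after cyclic loess normalization. *Slc25a13*, the exchanger best known from liver, was at 5.91, 5.91 and 6.02 in double-heterozygous, 5.87, 5.68 and 6.07 in null and 6.17, 5.89 and 5.86 in wild-type hearts, with all groups overlapping.

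The aminotransferases of the shuttle had larger fold change estimates than its carriers in the same arrays, though none passed. They were named for having p-values among the smallest of the shuttle enzymes, whereas the carriers were named by role. Larger estimates follow in part from that choice, and the contrast between enzymes and carriers was not tested. *Got1*, the cytosolic aspartate aminotransferase, was at 7.89, 7.67 and 8.10 in double-heterozygous, 8.08, 8.12 and 8.06 in null and 8.28, 8.25 and 8.40 in wild-type hearts, a log2 fold change of -0.42 (standard error 0.12, adjusted p = 0.283) in double-heterozygous hearts. *Got2*, the mitochondrial form, was at 8.35, 8.51 and 8.56, at 8.41, 8.26 and 8.53, and at 8.80, 8.65 and 8.89 in the same order of genotypes, -0.31 in double-heterozygous and -0.38 in null hearts (standard error 0.11, adjusted p = 0.378 and 0.771). Both mutant groups lay below every wild-type array for both enzymes. *Mdh2*, the mitochondrial malate dehydrogenase, differed by -0.19 in double-heterozygous and -0.09 in null hearts, and cytosolic *Mdh1* by -0.02 and 0.01. All genes above the upper quartile, where these enzymes also lay, had medians of -0.095 in double-heterozygous and -0.022 in null hearts. Enzyme values after other normalization were not examined.

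**Figure D3:**
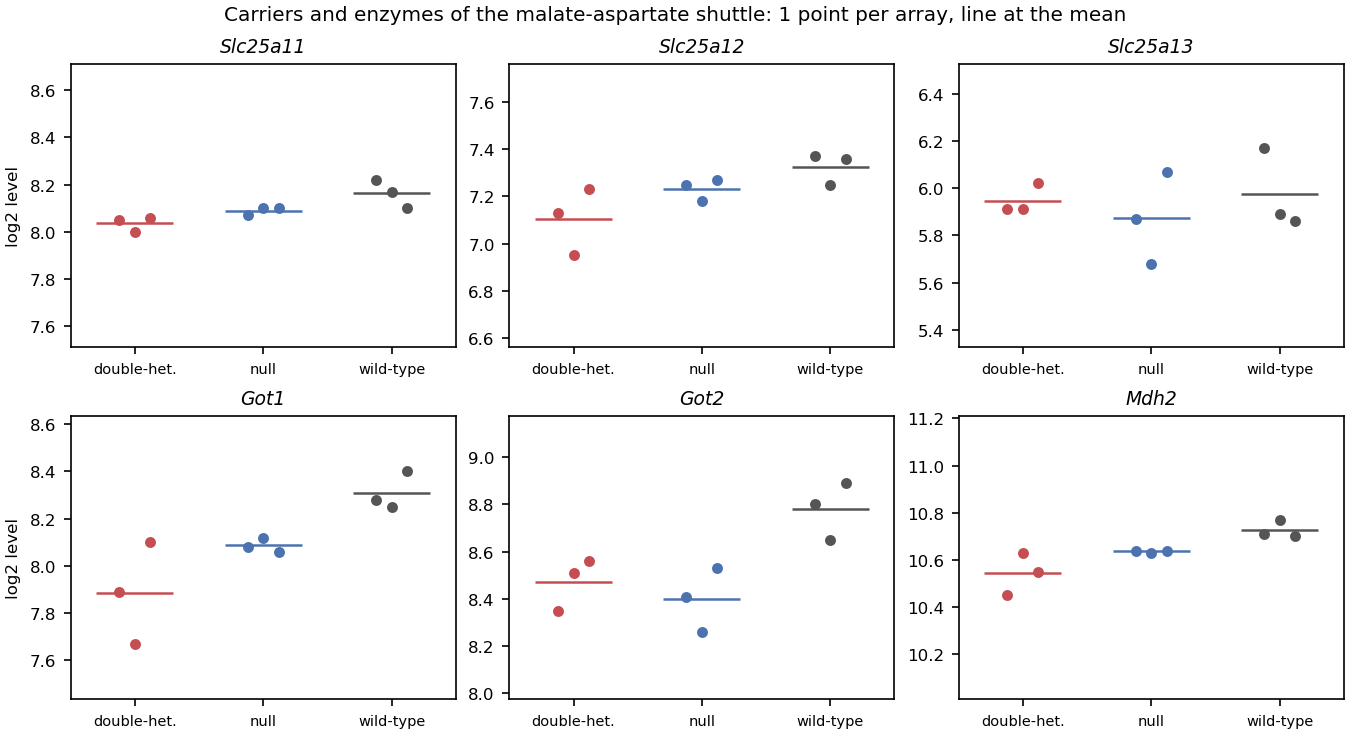
Log2 expression level (vertical axes) of the malate-aspartate shuttle carriers *Slc25a11*, *Slc25a12* and *Slc25a13* and enzymes *Got1*, *Got2* and *Mdh2* in double-heterozygous, *miR-1-1* null and wild-type hearts, with 1 point per array and a line at each mean. The double-heterozygous points lie below all wild-type points for every gene but *Slc25a13*, and each panel has its own axis range.

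*Slc25a20* had the smallest p of the direct comparison between the mutant genotypes. It encodes the carnitine and acylcarnitine carrier through which long-chain fatty acids enter the matrix. The gene was at 5.57, 6.01 and 5.71 in double-heterozygous hearts, against 6.16, 6.14 and 6.16 in *miR-1-1* null hearts, with wild-type hearts between them at 5.93, 6.13 and 6.01. Every double-heterozygous array lay below every null array, and the log2 fold change was -0.39 (standard error 0.12, interval -0.66 to -0.12, adjusted p = 0.565 by limma), a fold of 0.763. Against wild-type it was -0.26 in double-heterozygous (interval -0.53 to 0.01, overlapping arrays) and 0.13 in null hearts (-0.14 to 0.40, no overlap). Double-heterozygous replicate 8 stood apart from replicates 7 and 9: without it the direct difference was -0.51, and without replicate 7 it was -0.29. The double-heterozygous value against wild-type was -0.16 without replicate 7, and -0.16 after quantile and -0.17 after cyclic loess normalization.

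The same replicate stood above the other double-heterozygous arrays for *Ucp3* and *Ckmt2*, but was the lowest of them for *Cpt2* and *Crat*. *Ucp3*, a carrier of muscle mitochondria outside the symbol rule, was at 3.76, 4.87 and 3.82 in double-heterozygous hearts, against 4.71, 4.86 and 4.81 in null and 4.85, 5.17 and 4.54 in wild-type hearts. *Ckmt2*, the creatine kinase of the space between the mitochondrial membranes, was at 6.63, 7.55 and 6.21 in double-heterozygous, 6.33, 6.18 and 6.54 in null and 7.45, 7.57 and 7.63 in wild-type hearts. Replicate 8 thus held wild-type levels of *Ucp3* and *Ckmt2*. In null against wild-type hearts *Ckmt2* had a log2 fold change of -1.2 (standard error 0.28), a fold of 0.435 with an unadjusted p of 0.00194 by limma. That met the study's thresholds, as 0.126% of all genes did, but not the adjusted one (0.702). Of the acyltransferases that work with *Slc25a20*, *Cpt1a*, on the outer membrane, was at 6.25, 6.24 and 6.28 in double-heterozygous hearts, against 6.44, 6.44 and 6.74 in null and 6.47, 6.44 and 6.44 in wild-type hearts. *Cpt2*, on the inner membrane, was at 8.00, 7.79 and 7.98 in double-heterozygous, 8.15, 8.05 and 8.08 in null and 8.18, 8.37 and 8.09 in wild-type hearts. Both, and the carnitine acetyltransferase *Crat*, were lower in every double-heterozygous array than in every array of either other genotype. The log2 differences were -0.28, -0.17 and -0.21 against null and -0.19, -0.29 and -0.22 against wild-type, with adjusted p-values of 0.381 or more by limma. All genes above the upper quartile, where these enzymes also lay, had medians of -0.073 and -0.095 in the same order. Values of these enzymes after other normalization were not examined. *Slc25a42*, which imports coenzyme A, was at 4.97, 5.07 and 5.01 in double-heterozygous, 4.69, 4.97 and 4.81 in null and 4.97, 4.97 and 4.97 in wild-type hearts, with intervals of -0.17 to 0.26 for double-heterozygous and -0.36 to 0.06 for null against wild-type. No member of this group of 7 cofactor and acylcarnitine carriers had an unadjusted p under 0.05 against wild-type in either genotype. Over all genes 10.6% did in double-heterozygous and 5.72% in null hearts, shares at which so short a list would hold few or none.

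**Figure D4:**
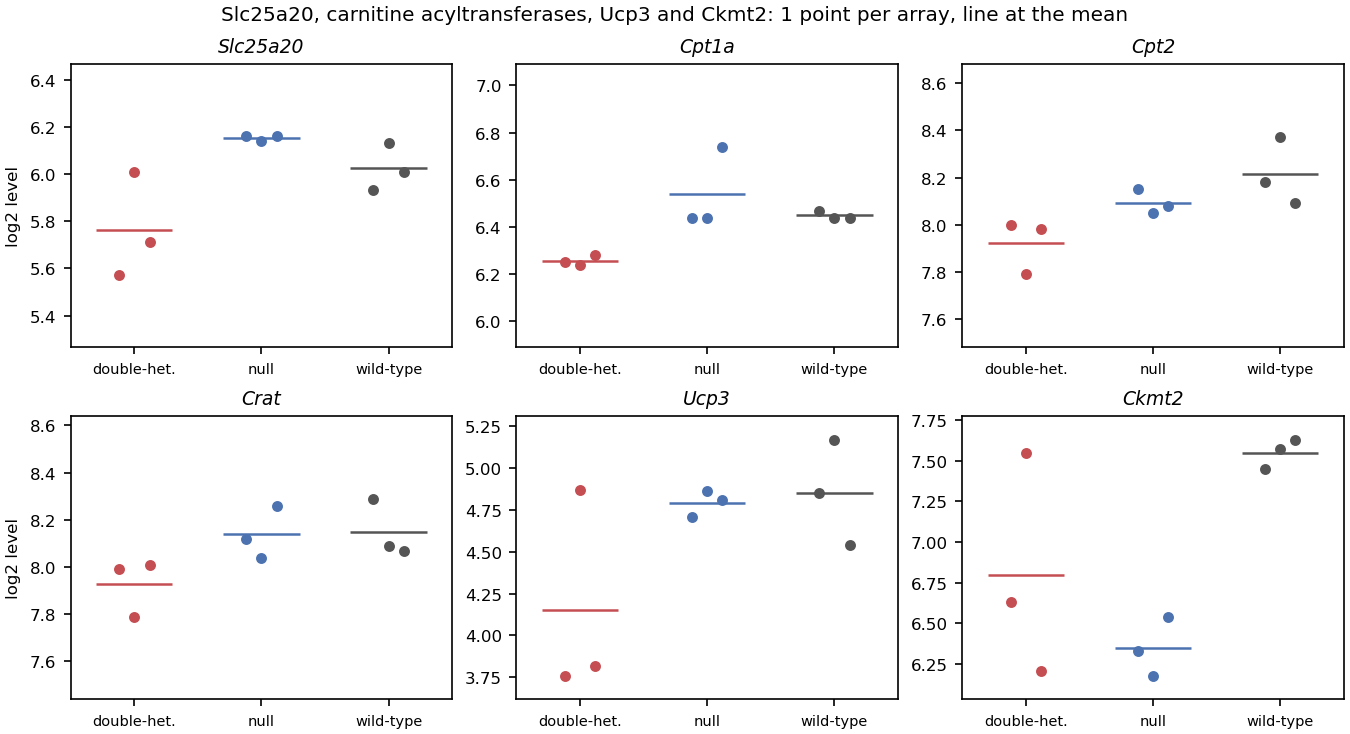
Log2 expression level (vertical axes) of *Slc25a20*, the acyltransferases *Cpt1a*, *Cpt2* and *Crat*, *Ucp3* and *Ckmt2* in double-heterozygous, *miR-1-1* null and wild-type hearts, with 1 point per array and a line at each mean. In *Slc25a20*, *Ucp3* and *Ckmt2* the highest double-heterozygous point is replicate 8, at 6.01, 4.87 and 7.55. In *Cpt2* and *Crat* that replicate is the lowest double-heterozygous point, at 7.79 in each, and each panel has its own axis range.

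Among the iron and heme carriers both mitoferrins varied between arrays of a genotype. *Slc25a28* (mitoferrin 2, the form found in most tissues) was at 5.02, 4.48 and 5.02 in double-heterozygous, 4.40, 4.83 and 4.47 in *miR-1-1* null and 4.83, 5.46 and 5.09 in wild-type hearts. The null value was lower by -0.56 on the log2 scale (standard error 0.20, interval -1.03 to -0.10, adjusted p = 0.871), a fold of 0.676, although 1 null array stood level with the lowest wild-type array. *Slc25a37* (mitoferrin 1, known for its role in red cell precursors) was at 5.02, 5.68 and 5.33 in double-heterozygous hearts, spread over 3.42, 4.53 and 5.65 in null hearts, and was at 5.11, 4.81 and 4.81 in wild-type hearts. Its direct difference between double-heterozygous and null hearts, 0.81, had an interval of -0.21 to 1.83 and was 0.25 without null replicate 4 and 1.37 without null replicate 6. Against wild-type the null value of -0.38 became 0.18 and -0.93 without these arrays. The erythroid markers *Slc4a1*, *Rhag* and *Epb42*, the 3 of 7 listed that had a probe set of their own, summed to 4.14 to 4.31 in double-heterozygous, 4.12 to 4.21 in null and 4.17 to 4.28 in wild-type hearts, narrow ranges beside those of *Slc25a37*.

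*Slc25a38*, which brings in the glycine for heme synthesis, was at 2.63, 2.63 and 2.60 in double-heterozygous, 2.49, 2.27 and 2.84 in null and 2.69, 3.21 and 2.87 in wild-type hearts. The double-heterozygous arrays lay below the wild-type arrays, by -0.30 (interval -0.67 to 0.07), or -0.16 without wild-type replicate 2. The null value of -0.39 (standard error 0.17, adjusted p = 0.872) became -0.25 when wild-type replicate 2 was dropped and -0.26 when null replicate 5 was. *Slc25a39*, a glutathione carrier, was at 5.84, 5.88 and 6.03 in double-heterozygous, 5.77, 5.78 and 5.90 in null and 6.03, 5.99 and 5.74 in wild-type hearts, with intervals of -0.24 to 0.24 and -0.34 to 0.14 against wild-type.

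The 2 family members on the study's list of predicted *miR-1* targets, which left out genes lower in hearts without *miR-1*, had fold changes of opposite sign. *Slc25a22*, a glutamate carrier, was at 3.08, 3.55 and 3.39 in double-heterozygous, 3.35, 3.61 and 3.55 in *miR-1-1* null and 3.55, 4.01 and 3.78 in wild-type hearts. Its mean was therefore lower in both mutant genotypes, by -0.44 in double-heterozygous (standard error 0.16, interval -0.79 to -0.09, adjusted p = 0.370) and by -0.28 in null hearts (-0.63 to 0.07), with the arrays overlapping in each case. The null value was -0.16 without wild-type replicate 2. *Slc25a25*, a calcium-regulated carrier of ATP-magnesium and phosphate, was at 2.60, 2.74 and 2.54 in double-heterozygous, 2.71, 2.54 and 2.54 in null and 2.46, 2.45 and 2.62 in wild-type hearts. Its fold changes were 0.12 (-0.11 to 0.34) and 0.09 (-0.14 to 0.31), which were 0.06 without double-heterozygous replicate 8 and 0.03 without null replicate 4.

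The smallest p of the family belonged to *Slc25a47*, a carrier known mainly from liver. It was at 3.47, 3.59 and 3.56 in *miR-1-1* null hearts and at 3.29, 3.38 and 3.29 in double-heterozygous hearts, against 3.27, 2.98 and 2.82 in wild-type hearts. Both mutant genotypes lay above every wild-type array. The log2 fold change was 0.52 in null hearts (standard error 0.12, interval 0.25 to 0.79, adjusted p = 0.702 by limma), a fold of 1.43, and 0.30 in double-heterozygous hearts (standard error 0.12, adjusted p = 0.426). Wild-type replicate 1, the highest wild-type array, is 1 of the 2 arrays that carried *Xist*. Without it the null value was 0.64, a fold of 1.56 with an unadjusted p of 0.000198 by limma, which met the study's thresholds but not the adjusted one (0.317). Without wild-type replicate 3 the double-heterozygous value was 0.20.

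*Slc25a46*, a family member of the outer membrane with a role in mitochondrial shape, had lower values in both mutant genotypes. Its level was 6.74, 6.41 and 6.47 in double-heterozygous, 6.54, 6.46 and 6.58 in null and 6.82, 6.79 and 6.78 in wild-type hearts, and neither mutant group overlapped with wild-type. The log2 fold changes were -0.26 and -0.27 (standard error 0.10 for each, adjusted p = 0.418 and 0.871), the double-heterozygous value being -0.17 after quantile or cyclic loess normalization, with the direct difference at 0.01 (interval -0.22 to 0.24). The orphan carrier *Slc25a43* had the smallest p in double-heterozygous against wild-type hearts. It was at 1.98, 2.35 and 2.05 in double-heterozygous hearts, against 1.77, 1.86 and 1.86 in null and 1.78, 1.64 and 1.84 in wild-type hearts. All of its levels lay close to the receptor quartile of 1.74, and the differences of 0.37 from wild-type (standard error 0.11, adjusted p = 0.332) and 0.29 from null hearts (adjusted p = 0.634) were carried most by replicate 8, without which the difference from null was 0.18.

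The remaining carrier genes with an unadjusted p under 0.05 were *Slc25a35* and *Slc25a30*. *Slc25a35*, an orphan carrier, was at 3.58, 3.81 and 3.24 in double-heterozygous, 3.03, 3.36 and 3.02 in null and 3.27, 3.20 and 2.91 in wild-type hearts. Its difference was 0.41 from either genotype (standard error 0.17, adjusted p = 0.431 from wild-type and 0.658 from null), with overlapping arrays, and that from null was 0.27 without double-heterozygous replicate 8. *Slc25a30*, a relative of the uncoupling proteins, was at 4.20, 4.24 and 4.14 in double-heterozygous, 4.61, 4.14 and 4.78 in null and 4.20, 4.20 and 4.12 in wild-type hearts. Null replicates 4 and 6 alone were high, so the null value of 0.34 against wild-type (adjusted p = 0.872) was 0.53 without replicate 5 and 0.21 without replicate 6. *Slc25a10*, the dicarboxylate carrier, did not reach that p in any comparison. It was at 2.65, 2.78 and 2.88 in double-heterozygous hearts, against 3.06, 3.24 and 2.90 in null and 2.81, 3.23 and 2.95 in wild-type hearts, with -0.29 for double-heterozygous against null (interval -0.60 to 0.01).

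**Figure D5:**
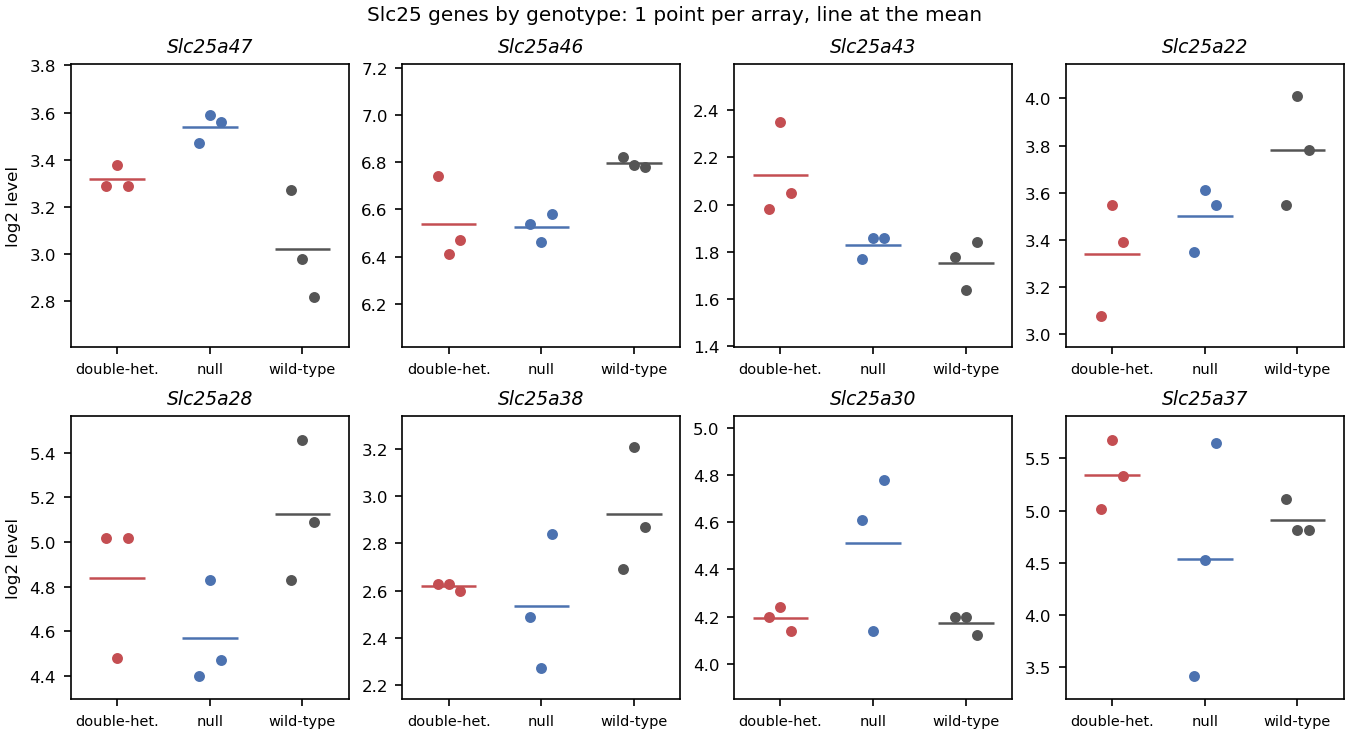
Log2 expression level (vertical axes) of 8 *Slc25* genes in double-heterozygous, *miR-1-1* null and wild-type hearts, with 1 point per array and a line at each mean. *Slc25a47* and *Slc25a46* are the genes whose mutant arrays, of both genotypes, do not overlap with wild-type, and the 3 null arrays of *Slc25a37* run over 3.42, 4.53 and 5.65; each panel has its own axis range.

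The share of carrier genes with non-overlapping arrays was close to that of all genes in both comparisons with wild-type. It was somewhat higher than that of all genes in the direct comparison, where the count is too small to set against that share. Between double-heterozygous and wild-type hearts 7 of the 46 carrier genes (15.2%) had no overlap, against 13.1% of all genes, with *Slc25a43* and *Slc25a47* higher (5.15% of all genes) and *Slc25a11*, *Slc25a12*, *Slc25a26*, *Slc25a38* and *Slc25a46* lower (7.95%). Between null and wild-type hearts there were 4 (8.7%, against 8.26%), with *Slc25a20* and *Slc25a47* higher (3.63%) and *Slc25a18* and *Slc25a46* lower (4.63%). The direct comparison gave 7 (15.2%, against 10%), with *Slc25a18* and *Slc25a43* higher (4.3%) and *Slc25a3*, *Slc25a10*, *Slc25a11*, *Slc25a20* and *Slc25a47* lower (5.75%) in double-heterozygous hearts. Of those lower in the direct comparison, *Slc25a3* and *Slc25a11* differed by only -0.08 and -0.05, which were -0.02 and -0.01 after quantile normalization. With 3 arrays against 3 an exact two-sided permutation test gives 0.1 for a gene without overlap, the smallest p it allows.

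By role, most of the 9 amino acid carriers were below 0 in both comparisons with wild-type, which share the wild-type arrays, but not in the direct one. Of these, 7 (beside 55.3% of all genes) were below 0 in double-heterozygous against wild-type hearts (median -0.117, from -0.44 to 0.07) and 8 (beside 51.9%) in null against wild-type hearts (median -0.131, from -0.39 to 0.06). Between double-heterozygous and null hearts 3 were below 0, beside 54.5% of all genes (median 0.014). The 7 cofactor and acylcarnitine carriers had 5 and 6 below 0, with medians of -0.162 and -0.138. The 4 dicarboxylate, citrate and oxoacid carriers had medians of -0.174 and 0.011, and the 4 iron and glutathione carriers 0.071 and -0.238, with all 4 of these above 0 in double-heterozygous against null hearts (median 0.199). The 3 carriers related to uncoupling proteins stayed between -0.07 and 0.02 in double-heterozygous hearts and between -0.17 and 0.34 in null hearts. These medians are descriptions and carry no test.

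The machinery that puts carriers into the inner membrane was represented by 13 genes, which encode the small Tim chaperones, the TIM22 complex and receptors of the outer membrane. Of these, 0 had an unadjusted p under 0.05 in any comparison, beside 10.6% of all genes in double-heterozygous and 5.72% in null against wild-type hearts and 7.39% in the direct comparison, shares at which a list of this size would hold few or none. Their log2 fold changes lay between -0.22 and 0.11 in double-heterozygous and between -0.26 and 0.22 in null hearts against wild-type. Among 18 other mitochondrial transporters, 2 were lower at an unadjusted p under 0.05 in double-heterozygous hearts (6.15% of all genes) and 1 in null hearts (3.15%), with 0 higher in either (4.45% and 2.57%), counts too small to set against these shares. *Mcu*, the pore of the calcium uniporter, was at 4.69, 4.73 and 4.54 in double-heterozygous, 4.66, 4.73 and 4.73 in null and 5.03, 4.97 and 5.02 in wild-type hearts. The arrays of both mutant genotypes lay below wild-type, by -0.36 and -0.30 (standard error 0.09 for each, adjusted p = 0.234 and 0.771). *Vdac3*, an outer membrane channel, was lower by -0.29 in double-heterozygous hearts (standard error 0.10, adjusted p = 0.365).

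Of 9 regulators of mitochondrial gene expression, 2 were lower at an unadjusted p under 0.05 in double-heterozygous hearts (6.15% of all genes) and 1 in null hearts (3.15%), again few genes beside those shares. *Ppargc1a*, the coactivator of mitochondrial biogenesis, was at 6.96, 7.00 and 7.00 in double-heterozygous, 7.42, 7.33 and 7.11 in null and 8.25, 7.43 and 7.31 in wild-type hearts, where replicate 1 stood above the others. Its relative *Ppargc1b* was at 5.60, 5.86 and 5.58, at 5.63, 5.75 and 5.88, and at 6.03, 6.42 and 6.05 in the same order, with no overlap between either mutant genotype and wild-type (-0.49 and -0.41, standard error 0.13 for each, adjusted p = 0.287 and 0.859). Neither passed the adjusted threshold.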

How the data were processed

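Total RNA of postnatal day 2 hearts, 3 arrays for each of 3 genotypes, was amplified and hybridized to Affymetrix mouse Gene ST 2.0 arrays. The authors deposited log2 expression levels per probe set after RMA, which corrects background, equalizes distributions between arrays and summarizes probes by median polish, and can therefore shrink small differences. The submitters' processing notes list RMA, and Affymetrix Power Tools at version 1.12.0. The sources used here do not give the array's genome build.

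Of 41345 probe sets, 23521 had 1 gene symbol, and 23328 of these were matched by gene ID to RefSeq (GRCm38.p6). The brightest probe set of each gene was kept, which left 22180 genes, with no filter. All 9 arrays were fitted together with limma 3.58.1 (lmFit, eBayes) in R 4.3.3, with 1 mean per genotype, and p-values were adjusted by Benjamini-Hochberg over all genes. Limma was tested on simulated data first. Figures used matplotlib 3.10.9 in Python 3.11.15. No 2 arrays held more than 8.82% equal values, so the values of none were copied from another. That check cannot tell whether 2 arrays came from the same heart. The number of arrays limits the precision.

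Values in every array are given for carriers of oxidative metabolism, mitoferrins and heme-linked carriers, predicted *miR-1* targets, and the 5 members with the smallest p in each comparison. From each other list, up to 3 genes with the smallest unadjusted p were named for each comparison. Genes named by their p tend to have large estimates. *Slc25a31* and *Mdh2* were chosen after their values were seen. The members and lists were chosen with earlier results of these data known. Alternatives covered the arrays fitted, variance moderation, test, dim genes, normalization, centring, probe sets, array weights, *Xist*, the fold threshold and each array left out.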

Additional observations from a re-analysis of the deposited data

Results flagged for a closer look

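*Slc25a20* is the 1 carrier gene for which every array of one mutant genotype lay on one side of the wild-type mean and every array of the other on the opposite side. The double-heterozygous arrays, at 5.57, 6.01 and 5.71, were below the wild-type mean of 6.02, and the *miR-1-1* null arrays, at 6.16, 6.14 and 6.16, were above it. The log2 difference, double-heterozygous minus null, was -0.39, and it did not pass in the limma fit (adjusted p = 0.565). Over all genes 297 (1.34%) had arrays on opposite sides in this way. The highest double-heterozygous array, replicate 8, lies just under the wild-type mean.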

How the results depend on the processing

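The count of carrier genes at the study's thresholds was 0 in every comparison and alternative, with 2 exceptions, both in *miR-1-1* null against wild-type hearts. It was 1, *Slc25a47*, without the arrays that carry *Xist* (fold 1.56, adjusted p = 0.402). With single arrays left out it ranged from 0 to 1, with the 1 again *Slc25a47*, without wild-type replicate 1. No carrier gene had an adjusted p under 0.05 under any of 20 alternatives in any comparison, the methods' t-test included. Counts at an unadjusted p under 0.05, an outcome added after the data were seen, were 2, 2 and 2 by the methods' t-test in double-heterozygous against wild-type, null against wild-type and double-heterozygous against null hearts, beside 6, 5 and 3 by limma. They were 3 and 3 for the comparisons with wild-type when only those 2 genotypes were fitted, and after quantile or cyclic loess normalization 4 for double-heterozygous against wild-type hearts and 5 for the direct comparison.

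The median shift of the family from the wild-type means had a standard deviation of 0.027 between arrays of a genotype. The family's median log2 fold change in null against wild-type hearts (-0.03) ran from -0.048 to -0.006 and moved by less than this spread under all 18 alternatives. In double-heterozygous against wild-type hearts (-0.018) it was -0.064 with genes below the median level left out, -0.055 without the arrays that carry *Xist*, and -0.057 to -0.007 with single arrays left out. In the direct comparison (0.008) it was 0.046 after cyclic loess normalization, -0.022 with *Xist* as a covariate, and -0.029 to 0.021 with single arrays left out, so its sign was not settled. Among single genes, *Slc25a42* in double-heterozygous against wild-type hearts was 0.13 after quantile normalization, beside 0.05. The mean of all probe sets of a gene left the carriers as they were, since each has 1. No paired analysis was possible because the replicate numbers are not shared between genotypes. Genes near the receptor quartile have only a weak signal, and small differences in them would not have been seen.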

Other observations

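A further probe set is listed for both *Rangrf* and *Slc25a35*, so its signal cannot be given to 1 gene and it was not counted. It was at log2 levels of 3.54, 2.77 and 3.09 in double-heterozygous, 2.47, 2.94 and 2.95 in *miR-1-1* null and 3.50, 2.94 and 2.71 in wild-type hearts, with all groups overlapping, whereas the probe set of *Slc25a35* alone was highest in double-heterozygous replicate 8.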
